A study of Mus musculus with 15 samples.

Results

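The elastic fibre genes were followed in mouse skin that had healed from a full-thickness excision and in intact skin. The 10 genes were chosen by symbol, as the core, microfibril and assembly genes of the elastic fibre, from the 18929 genes in the table, and all 10 were found and passed the filter on low counts. They are Eln, Fbn1, Fbn2, Fbln1, Fbln5, Efemp1, Efemp2, Emilin1, Mfap4 and Mfap5. RNA was sequenced from 15 skin samples in 5 groups of 3. The mice were male, wild type and of the balb/c strain, and were 4 to 6 weeks old. In 2 groups a round wound of 10 mm or 15 mm on the back was filled with acellular Matrigel beads (acellular 10 mm, acellular 15 mm). In 2 further groups, wounds of the same sizes received beads laden with mesenchymal stem cells (MSCs) at high density, placed sparsely among acellular beads (HDB 10 mm, HDB 15 mm). The fifth group was normal skin, with no wound and no beads. The MSCs were human cells from umbilical cord, while reads were counted on mouse genes, and how human transcripts entered these counts was not tested. Skin was taken 4 weeks after implantation by the sequencing methods, although the methods also have the wound experiment ending at day 21. The labels do not say that the samples of a group came from separate animals, so p-values measure only the spread between these samples. Total counts per sample lay between 15840551 and 18404188.

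Elastic fibres give skin its recoil. They have an amorphous core of cross-linked elastin, laid down on a scaffold of fibrillin microfibrils, and are built mainly by fibroblasts in the dermis and by smooth muscle cells in vessel walls. Secreted tropoelastin gathers into globules with the help of short fibulins, is carried to the microfibrils, and is joined into an insoluble polymer by lysyl oxidases. Most of the elastin of a tissue is made during growth and turns over slowly, and scars are known for sparse or disordered elastic fibres.

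The start regions of the genes were read first, because members that varied together across samples were compared with members that did not. RefSeq promoter windows on GRCm38.p6 were found for 6 of the 10 genes (Fbn1, Fbln1, Fbln5, Efemp1, Efemp2 and Emilin1). Eln, Fbn2, Mfap4 and Mfap5 were not matched. Each window runs from 250 bases before to 50 bases after the annotated start and is printed 5′ to 3′ on the strand of the gene. Fbn1 (chr2:125506389-125506688, minus strand, 60.3% GC) and Emilin1 (chr5:30913536-30913835, plus strand, 61.7% GC) are shown because their levels were the most alike of all member pairs. Efemp1 (chr11:28852955-28853254, plus strand, 54.3% GC) is shown as the gene that fell most against normal skin, and Fbln5 (chr12:101819070-101819369, minus strand, 65.7% GC) as an assembly gene with nearly equal differences at both wound sizes. Capitals mark matches to the motifs searched on both strands.
Fbn1: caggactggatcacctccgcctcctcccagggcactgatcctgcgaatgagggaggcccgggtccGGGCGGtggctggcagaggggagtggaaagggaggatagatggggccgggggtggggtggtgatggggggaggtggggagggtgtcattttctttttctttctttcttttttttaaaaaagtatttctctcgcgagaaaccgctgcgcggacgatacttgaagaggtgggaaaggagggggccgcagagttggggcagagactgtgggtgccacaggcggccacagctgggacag
Emilin1: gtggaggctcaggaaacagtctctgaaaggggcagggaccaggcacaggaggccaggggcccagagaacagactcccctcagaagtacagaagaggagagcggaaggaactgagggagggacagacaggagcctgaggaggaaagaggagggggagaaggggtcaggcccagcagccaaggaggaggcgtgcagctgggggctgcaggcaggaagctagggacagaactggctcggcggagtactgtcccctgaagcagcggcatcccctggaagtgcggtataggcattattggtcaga
Efemp1: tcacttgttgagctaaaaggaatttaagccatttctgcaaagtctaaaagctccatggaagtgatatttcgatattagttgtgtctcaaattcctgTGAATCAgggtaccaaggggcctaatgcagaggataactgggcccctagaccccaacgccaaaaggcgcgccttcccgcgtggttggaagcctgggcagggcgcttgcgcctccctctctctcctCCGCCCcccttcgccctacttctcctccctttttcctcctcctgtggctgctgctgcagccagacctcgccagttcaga
Fbln5: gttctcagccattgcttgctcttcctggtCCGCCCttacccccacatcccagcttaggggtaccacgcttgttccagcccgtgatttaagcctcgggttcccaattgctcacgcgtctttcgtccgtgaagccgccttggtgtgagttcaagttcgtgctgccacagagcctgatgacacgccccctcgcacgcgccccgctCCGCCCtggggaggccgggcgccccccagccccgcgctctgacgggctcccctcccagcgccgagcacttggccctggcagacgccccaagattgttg
The motifs were the AP-1 element (TGANTCA), the GC box (GGGCGG), the SMAD element (GTCTAGAC), the TEAD element (GGAATG), the TATA box (TATAAA) and the E-box (CACGTG). Among 32851 windows of the same length, 7.81% held the AP-1 letters, 35.7% the GC box, 0.213% the SMAD element, 14.7% the TEAD element, 13.6% the TATA box and 7.15% the E-box. The Fbn1 window held 1 GC box, from -185 to -180 when the first transcribed base is counted as 0. The Fbln5 window shown held 2 GC boxes, of which the nearer ended 43 bases before the start. The Efemp1 window held 1 AP-1 element, from -154 to -148, and 1 GC box. The Emilin1 window, from the gene whose level was most like that of Fbn1, held none of the 6. In the windows not printed, all 3 starts of Efemp2 held GC boxes, both starts of Fbln1 held an E-box, and the second start of Fbln5 held none of the 6 motifs. These matches describe letters and do not show binding.

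Levels were compared between genes only per length, as CPM (counts scaled to a common library total) divided by the length of the principal transcript in kilobases. Mfap4, which encodes a glycoprotein that binds elastin and fibrillin, ranked highest per length in each of the 4 healed groups, from 47.6 ± 26.1 CPM per kb in acellular 10 mm to 136.7 ± 90.4 CPM per kb in HDB 15 mm skin (SD, n = 3). Eln ranked next in these groups, from 27.7 to 112.4 CPM per kb. Normal skin had another order. There Efemp1 ranked highest with 49.2 ± 19.0 CPM per kb (SD, n = 3), followed by Mfap4 with 35.2, Mfap5 with 29.3 and Eln with 25.7 CPM per kb. The ranges of 1 SD around neighbouring means in this order overlapped. Of the summed level per length of the 10 genes, Efemp1 made up 27.7% in normal skin and between 7.4% and 9.4% in the healed groups. Mfap4 and Eln together made up the larger part in every healed group. Fbn2 ranked last in all 5 groups, with 0.063 CPM per kb in normal skin and 2.62 CPM per kb in HDB 15 mm skin.

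**Figure D1:**
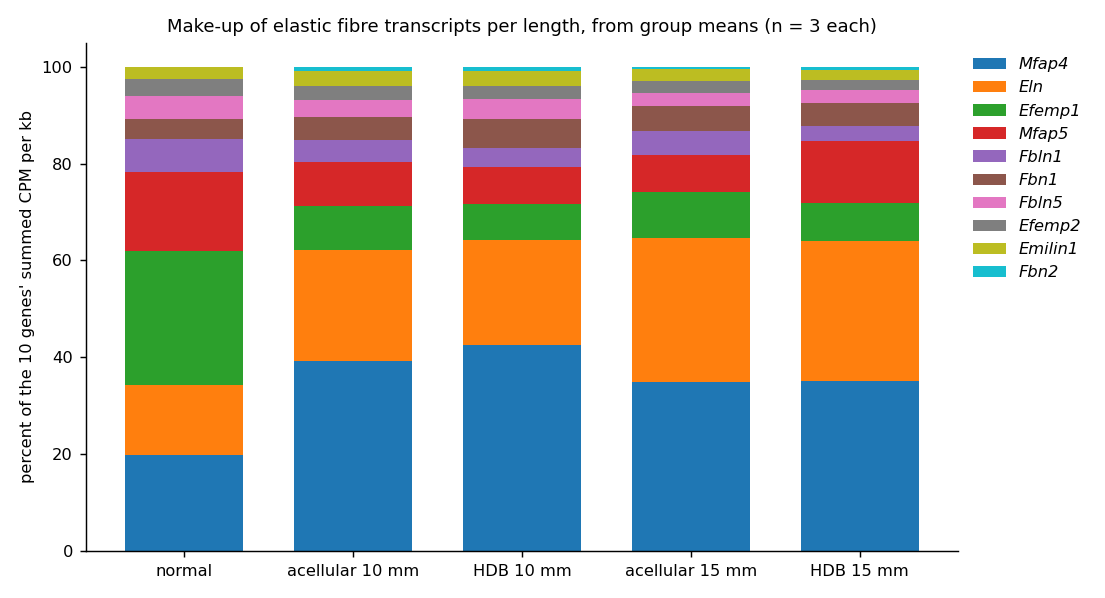
Stacked bars show, for each of the 5 groups, the percent that each gene contributed to the summed CPM per kilobase of the 10 elastic fibre genes, computed from group means of 3 samples. Efemp1 fills 27.7% of the bar of normal skin and at most 9.4% of a bar of healed skin.

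The samples of a group differed by amounts that varied with gene and group, and this bears on every comparison. The highest sample of a group was from 1.08 times (Efemp1 in HDB 15 mm) to 10.3 times the lowest (Eln in acellular 15 mm). In the acellular 15 mm group replicate 3 stood apart, with a summed level of the 10 genes of 1303 CPM against 308 and 387 CPM in replicates 1 and 2. It was among the highest 3 of the 15 samples for 5 of the 10 genes. Among all samples, HDB 15 mm replicate 3 had the highest sum, 1798 CPM, and was among the highest 3 for 9 of the 10 genes. Acellular 10 mm replicate 3 was among the lowest 3 for 9 of the 10 genes. For the elastic fibre genes that they move most, values without acellular 15 mm replicate 3 or HDB 15 mm replicate 3 are given beside the results. Partner and marker genes are given with all samples unless a sample is named as left out.

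**Figure D2:**
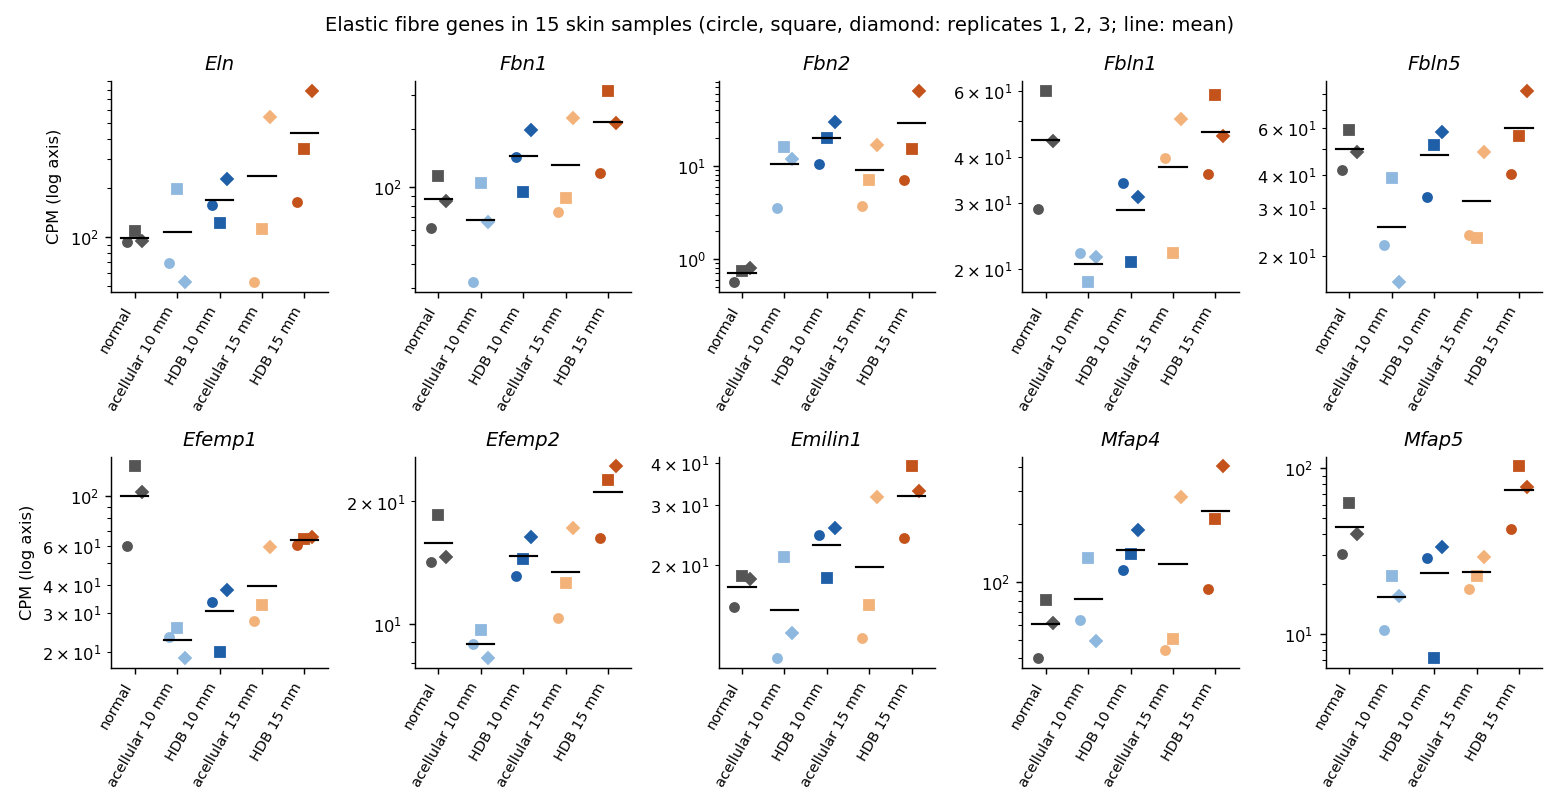
Each panel shows 1 gene in CPM on a log axis whose range differs between panels, with 1 symbol per sample (circle, square and diamond for replicates 1, 2 and 3) and a line at the group mean, n = 3. Acellular 15 mm replicate 3 (diamond) lies above the other acellular 15 mm samples in all 10 panels, and Fbn2 lies below 1 CPM in the 3 normal samples.

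The main comparison asked whether healed skin that had received HDB beads differed in elastic fibre transcripts from skin that had received acellular beads. All 10 genes had a higher fitted level in HDB skin, whether at 10 mm, at 15 mm or with both sizes combined, but none passed the test in any of the 3 comparisons. The median log2 fold change of the 10 genes was 0.68 at 10 mm (range 0.43 to 1.10), 0.80 at 15 mm (0.32 to 1.66) and 0.82 over both sizes (0.40 to 1.29). Over all 15369 genes tested the medians were -0.0083, 0.0041 and -0.0081, and 48.2%, 50.3% and 48.8% of genes were higher in HDB skin. At an adjusted p under 0.05 (the quasi-likelihood test of edgeR, Benjamini-Hochberg adjusted), 0.0% of all genes were called at 10 mm and 0.0% over both sizes, where DESeq2 called 15 and 223 genes. At 15 mm 2.93% were called, 0.579% as higher and 2.35% as lower in HDB skin. The labels do not say what a replicate number marks, but acellular and HDB 15 mm samples of the same number deviated together. With replicate number as a block in the fit of all 15 samples, 179 genes were called at 15 mm in place of 450. Each HDB sample at 15 mm was above the acellular sample of its number for 8 of the 10 genes (not Fbn1 or Fbln1), where 19.2% of all genes had this order. Of the 10 elastic fibre genes, 2 had an unadjusted p under 0.05 at 10 mm, 3 at 15 mm and 7 with the sizes combined, where 543, 3567 and 2428 of the 15369 genes had one. Every HDB sample was above every acellular sample for 1 of the 10 genes at 10 mm (Efemp2), where 4.53% of all genes had this order, and for 2 at 15 mm (Efemp1 and Mfap5), where 8.55% had it. Because fewer cells of a type and less RNA per cell give the same level in bulk tissue, the comparison cannot tell them apart.

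**Figure D3:**
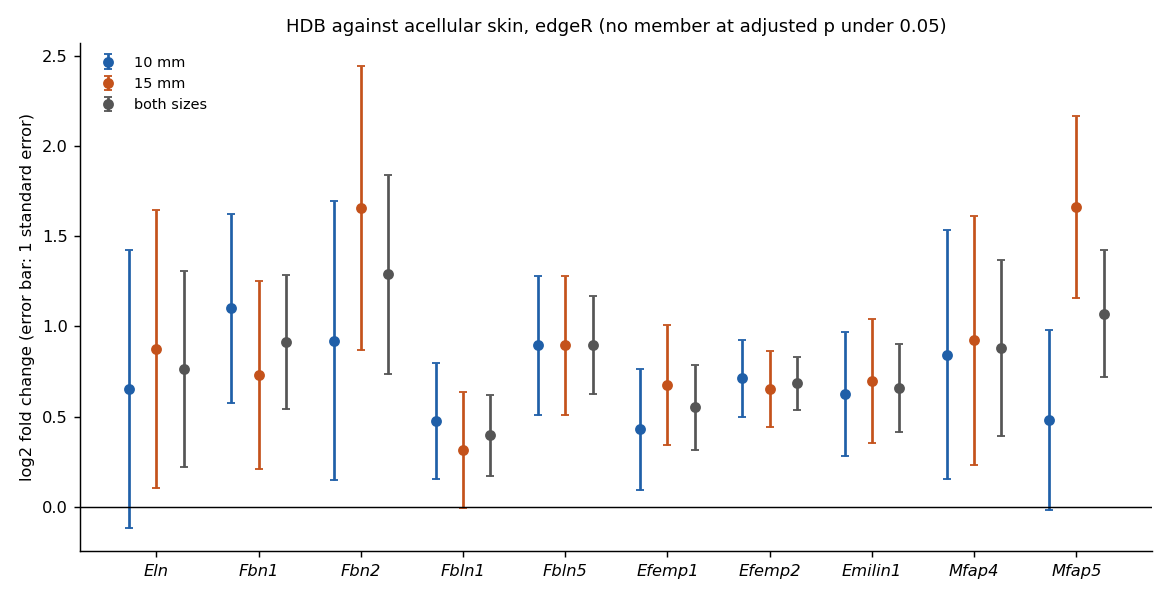
Points are log2 fold changes of HDB against acellular skin from edgeR for the 10 genes, for each wound size and for the sizes combined, and bars are 1 standard error. All 30 points lie above 0, and none has an adjusted p under 0.05.

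Eln (Entrez 13717, chr5:134702595-134747368 on GRCm38.p6) encodes tropoelastin, the monomer of the elastic core. Its level at 10 mm was 69.2, 198 and 53.2 CPM in the acellular samples and 157, 121 and 226 CPM in the HDB samples. At 15 mm it was 52.9, 113 and 543 CPM in the acellular and 164, 347 and 789 CPM in the HDB samples. The groups overlapped at both sizes. The highest acellular sample at each size lay above 2 of the 3 HDB samples, and within the acellular 15 mm group the highest sample was 10.3 times the lowest. With both sizes together Eln had a log2 fold change of 0.76 with a standard error of 0.544 (nominal 95% interval by normal approximation -0.30 to 1.83, edgeR adjusted p = 0.482). It was 1.52 without acellular 15 mm replicate 3 (edgeR adjusted p = 0.0719) and 0.38 without HDB 15 mm replicate 3 (edgeR adjusted p = 0.751). The exact two-sided permutation test over both sizes gave p = 0.135 for Eln. Permutation p-values here and below are for 1 gene each and are not adjusted, and the share of all genes with such values was not computed. For 15 mm wounds alone the log2 fold change of Eln was 0.88 (adjusted p = 0.516 from edgeR). It became 2.39 once acellular 15 mm replicate 3 was left out (adjusted p = 0.0436 from edgeR). Leaving out HDB 15 mm replicate 3 instead gave Eln 0.11 (adjusted p = 0.956 from edgeR).

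The fibrillins form the backbone of the microfibrils on which elastin is deposited. Fbn1 (Entrez 14118, chr2:125300594-125506485) encodes the main fibrillin of adult tissue. Its level at 10 mm was 32.1, 105 and 66.0 CPM in acellular and 144, 94.1 and 197 CPM in HDB samples, and at 15 mm 74.7, 88.4 and 229 CPM in acellular and 118, 317 and 215 CPM in HDB samples. A single acellular sample at each size reached into the HDB range. Fbn1 had a log2 fold change of 1.10 at 10 mm, the largest of the 10 genes there, and 0.91 over both sizes (standard error 0.369, edgeR adjusted p = 0.280, exact permutation p = 0.045). Without acellular 15 mm replicate 3 the value at 15 mm was 1.41 in place of 0.73, with adjusted p = 0.0827 from edgeR.
Fbn2 (Entrez 14119) encodes the fibrillin known chiefly from development. Its level at 10 mm was 3.54, 16.2 and 11.98 CPM in acellular and 10.5, 20.1 and 29.5 CPM in HDB samples. At 15 mm it was 3.74, 7.003 and 16.7 CPM in acellular and 7.08, 15.1 and 64.6 CPM in HDB samples. The groups overlapped at both sizes, and HDB 15 mm replicate 3 alone carried more than the other HDB 15 mm samples together. Its log2 fold change of 1.29, both sizes combined, was the largest of the 10 with all samples (standard error 0.551, edgeR adjusted p = 0.293, exact permutation p = 0.105), but fell to 0.60 without HDB 15 mm replicate 3, below the 1.06 of Mfap5 in that fit. For 15 mm alone the value was 1.66, or 2.43 without acellular 15 mm replicate 3 (adjusted p = 0.0828 from edgeR) and 0.27 without HDB 15 mm replicate 3 (adjusted p = 0.864 from edgeR).

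The short fibulins bring tropoelastin to the microfibrils. Efemp2 (Entrez 58859, chr19:5473946-5482520), which encodes fibulin 4, a protein that binds lysyl oxidase and is needed for elastic fibre formation, had the narrowest range over the 15 samples. Its level at 10 mm was 8.91, 9.66 and 8.24 CPM in acellular and 13.1, 14.4 and 16.4 CPM in HDB samples. At 15 mm it was 10.3, 12.6 and 17.2 CPM in acellular and 16.2, 22.6 and 24.4 CPM in HDB samples. At 10 mm the groups did not overlap, and at 15 mm a single acellular sample lay above the lowest HDB sample. Efemp2 had log2 fold changes of 0.71 at 10 mm, 0.66 at 15 mm and 0.68 with the sizes combined (standard error 0.149, 95% interval 0.39 to 0.98). The edgeR adjusted p over both sizes was 0.261, and the exact two-sided permutation test gave p = 0.01, where the smallest that 400 arrangements allow is 0.005. DESeq2 gave Efemp2 an adjusted p of 0.0126 over both sizes, where it called 1.51% of all genes, and 0.0381 at 15 mm, where it called 12% of all genes.
Fbln5 (Entrez 23876, chr12:101746565-101819119) encodes fibulin 5, which binds both elastin and the cross-linking enzyme LOXL1. Its level at 10 mm was 21.98, 38.8 and 15.9 CPM in acellular and 33.1, 51.6 and 57.9 CPM in HDB samples, and at 15 mm 23.9, 23.3 and 48.8 CPM in acellular and 40.4, 55.8 and 82.4 CPM in HDB samples. Fbln5 had log2 fold changes of 0.90 at 10 mm and 0.89 at 15 mm, and the difference between the sizes was -0.00068 with a 95% interval of -1.0 to 1.0. Over both sizes it was 0.90 (standard error 0.272, edgeR adjusted p = 0.261, exact permutation p = 0.025).
Efemp1 (Entrez 216616, chr11:28853154-28926743), which encodes fibulin 3, had log2 fold changes of 0.43 at 10 mm and 0.68 at 15 mm, and the exact permutation test over both sizes gave p = 0.045. With other settings or samples left out, its value at 10 mm lay between 0.24 and 0.68. At 15 mm its HDB samples had 60.7, 64.1 and 65.5 CPM, the narrowest spread of this gene in any group, and the acellular samples 27.6, 32.4 and 59.0 CPM. Fbln1 (Entrez 14114, chr15:85205949-85286294), which encodes fibulin 1, found in elastic fibres and basement membranes, had the smallest difference of the 10 genes over both sizes with all samples, 0.40 (standard error 0.226, edgeR adjusted p = 0.388, exact permutation p = 0.095). Without HDB 15 mm replicate 3 that of Eln was smaller, 0.38 against 0.41 for Fbln1. Its level ranged from 18.4 to 21.98 CPM in acellular 10 mm, from 20.9 to 34.0 CPM in HDB 10 mm, from 22.1 to 50.6 CPM in acellular 15 mm and from 35.9 to 58.5 CPM in HDB 15 mm samples.

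The remaining genes encode glycoproteins of the microfibril and of its border with elastin. Emilin1 (Entrez 100952, chr5:30913387-30921279) encodes the elastin microfibril interfacer. It ranged from 10.7 to 21.1 CPM in acellular and from 18.4 to 25.7 CPM in HDB samples at 10 mm, and from 12.2 to 31.8 CPM in acellular and from 24.0 to 39.0 CPM in HDB samples at 15 mm. Both sizes combined, Emilin1 had a log2 fold change of 0.66 (standard error 0.244, edgeR adjusted p = 0.268, exact permutation p = 0.035).
Mfap4 (Entrez 76293, chr11:61485431-61488708) had 63.8, 133 and 49.1 CPM in acellular and 115, 139 and 187 CPM in HDB samples at 10 mm. In 15 mm wounds it had 44.1, 50.8 and 278 CPM in acellular and 92.0, 213 and 401 CPM in HDB samples. The acellular replicate 3 at 15 mm was 6.30 times the lowest sample of its group and lay above 2 of the 3 HDB samples. Mfap4 at 15 mm had a log2 fold change of 0.92 (adjusted p = 0.441 from edgeR) with all samples and 2.31 (adjusted p = 0.0295 from edgeR) without that sample. Without HDB 15 mm replicate 3 it was 0.30 (adjusted p = 0.861 from edgeR). The exact permutation test of Mfap4 over both sizes gave p = 0.085.
Mfap5 (Entrez 50530, chr6:122513584-122529290) encodes a small fibrillin-binding glycoprotein of the microfibril. At 10 mm it had 10.6, 22.4 and 16.8 CPM in acellular and 28.9, 7.16 and 33.4 CPM in HDB samples. In 15 mm wounds it had 18.7, 22.5 and 29.3 CPM in acellular and 42.9, 103 and 77.6 CPM in HDB samples. The groups did not overlap at 15 mm, while at 10 mm HDB replicate 2 was the lowest of the 6 samples. The log2 fold change of 1.66 at 15 mm (standard error 0.506, 95% interval 0.67 to 2.65) came closest of the 10 genes to the threshold in edgeR, with adjusted p = 0.0867. DESeq2 gave it an adjusted p of 0.0151, and the exact permutation test gave p = 0.1, the smallest that 3 samples against 3 allow. Over both sizes the exact permutation p of Mfap5 was 0.085.

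Without acellular 15 mm replicate 3, edgeR called Eln, Fbln5, Efemp1, Efemp2, Emilin1 and Mfap4 at 15 mm, 6 of the 10 genes, while 14.9% of all genes were then called. Over both sizes it called Efemp2 and Emilin1, while 1.47% of all genes were called. The median log2 fold change of the 10 genes without this sample was 1.37 at 15 mm and 1.14 over both sizes. At 15 mm the genes not yet given without it were Efemp1 (1.08), Fbln5 (1.33), Efemp2 (0.88), Emilin1 (1.22), Mfap5 (1.85) and Fbln1 (0.59). In the same fit at 15 mm, 6 of the 8 fibroblast genes were called (median 1.91), as were 1 of 4 T cell genes (1.60), 1 of 7 smooth muscle and pericyte genes (0.61) and 1 of 6 hair shaft genes (-5.44), and the part of these cells was not tested. Without HDB 15 mm replicate 3 edgeR called none of the 10 genes and 0.0% of all genes in either comparison, and the median was 0.56 at 15 mm and 0.61 over both sizes.

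Marker genes of the cell types in skin were set beside the elastic fibre genes. The skin labels were checked on 8 fibroblast genes (Pdgfra, Col1a1, Col1a2, Col3a1, Lum, Dpt, Pi16 and Dpp4) and 6 epidermal genes, all of which were detected in every group. The summed level of the fibroblast genes was 3352 to 5200 CPM in acellular 10 mm samples and 8591 to 11510 CPM in HDB 10 mm samples. In 15 mm wounds it was 3291, 3700 and 14369 CPM in the acellular samples, the last being replicate 3, and 7861 to 17771 CPM in the HDB samples. Normal skin had 6980 to 23315 CPM, and its replicate 2, with the highest fibroblast sum of the 15 samples, had 659 CPM of the elastic fibre genes and was among the highest 3 samples for 5 of them. All 8 fibroblast genes had a higher fitted level in HDB skin over both sizes, with a median log2 fold change of 1.01 against 0.82 for the elastic fibre genes, and none was called. The fibroblast median was 1.48 without acellular 15 mm replicate 3 and 5 of the 8 were called, and without HDB 15 mm replicate 3 it was 0.91 and none was called by edgeR. The 7 smooth muscle and pericyte genes, from cells that also make elastin, had a median of 0.31, with summed levels of 620 to 1995 CPM in HDB 10 mm and 874 to 1319 CPM in acellular 10 mm samples. Over both sizes all 5 adipocyte genes (median 0.86), all 5 macrophage genes (0.60), all 6 endothelial genes (0.56), all 6 skeletal muscle genes (0.53) and all 4 T cell genes tested (0.39) were also higher in HDB skin, and all 6 hair shaft genes were lower (-5.16, each with an unadjusted p under 0.05), none called. Without acellular 15 mm replicate 3 the medians were 1.29 for adipocyte, 0.87 for macrophage, 0.69 for endothelial, 0.25 for skeletal muscle and 1.01 for T cell genes, none called. In that fit the hair shaft median was -5.45, with 1 gene called. The part of these cell types in the differences between HDB and acellular skin was not tested. Skeletal muscle genes ranged from 516 to 29277 CPM in healed samples and were at 41088 to 49756 CPM in normal skin. Hair shaft genes summed to 8270 CPM in acellular 15 mm replicate 1 and to 7.12 CPM in replicate 3, and cartilage genes to at most 6.37 CPM in any sample.

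**Figure D4:**
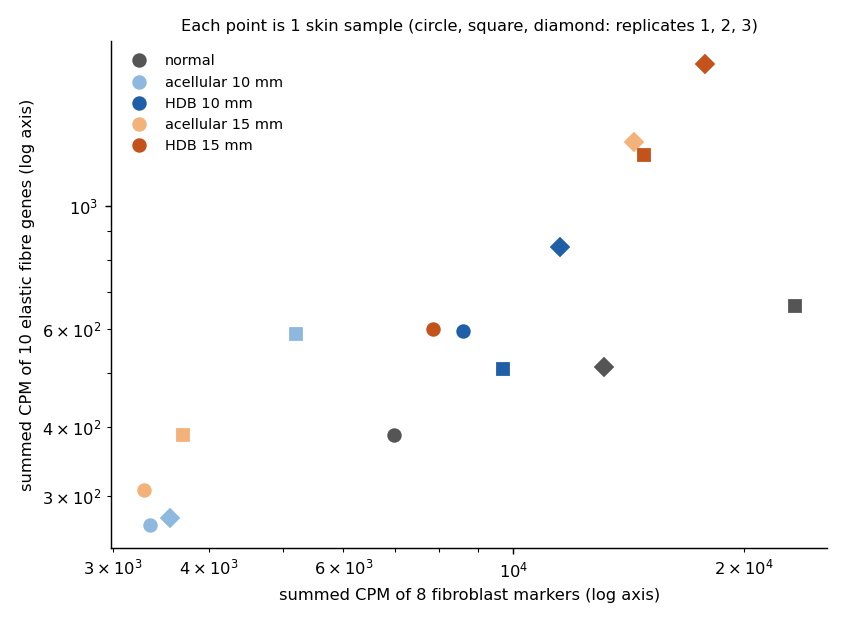
Each point is 1 of 15 samples, with the summed CPM of 8 fibroblast marker genes on the horizontal and of the 10 elastic fibre genes on the vertical log axis, and symbols as circle, square and diamond for replicates 1, 2 and 3. Acellular 15 mm replicate 3 (14369 and 1303 CPM) lies beside HDB 15 mm replicate 2 (14809 and 1235 CPM), and normal replicate 3 (13142 and 511 CPM) lies lower on the vertical axis.

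Across the 15 samples the genes did not vary as 1 block. The levels of Eln (log2 CPM) followed those of Mfap4 (Pearson r = 0.933), Emilin1 (0.913) and Fbn1 (0.842) most closely, and those of Fbln1 (0.433) and Efemp1 (0.354) least. Of the 45 pairs of genes, Fbn1 and Emilin1 had the highest r, 0.953, and Fbn2 and Efemp1 the lowest, -0.423. Efemp1 and Fbln1 were alike (0.820), as were Efemp2 and Fbln5 (0.880). The genes outside the list with the pattern most like the mean of the 10 were Fstl1 (0.979), Bgn (0.940), Vstm4 (0.932), Col5a2 (0.930) and Srpx (0.928). Most like Eln were C1qtnf5 (0.923), Lox (0.916), Pced1a (0.913), Ccn3 (0.910) and Thy1 (0.909). Lox encodes the lysyl oxidase that cross-links elastin, and Thy1 a surface protein of fibroblasts. These coefficients describe 15 samples that share groups and libraries, and carry no test.

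The effect of wound size was asked over both treatments, as was the difference of the HDB effect between sizes. All 10 genes had a higher fitted level in 15 mm than in 10 mm wounds, with a median log2 fold change of 0.70 against 0.029 over all genes, and none passed the test of edgeR with all samples. The median was 0.43 without acellular 15 mm replicate 3. Leaving out acellular 15 mm replicate 1 instead, edgeR called Efemp1 (1.04, adjusted p = 0.0435) and Efemp2 (0.63, adjusted p = 0.0403), while 3.12% of all genes were called. All 5 adipocyte genes (median 1.82), all 6 hair shaft genes (4.91), all 8 fibroblast genes (0.58, or 0.19 without acellular 15 mm replicate 3), all 6 endothelial genes (0.45) and all 5 macrophage genes (0.45) were also higher in 15 mm wounds, and all 6 skeletal muscle genes were lower (-0.42). With all samples none of these was called by edgeR, while 4 of the 6 hair shaft genes were called without acellular 15 mm replicate 3. In that fit the macrophage median was 0.12, with 4 of the 5 genes higher, and the skeletal muscle median was -0.15. The part of these cell types in the effect of wound size was not tested. Of all genes 0.397% were called for size, 0.104% as higher and 0.293% as lower in 15 mm wounds. The lowest adjusted p values from edgeR were 0.0841 for Efemp1 (log2 fold change 0.94, standard error 0.236), 0.105 for Efemp2 (0.55, standard error 0.149) and 0.128 for Fbln1 (0.78, standard error 0.227). Mean levels of Efemp1 were 22.6 ± 3.49 and 39.7 ± 16.9 CPM in acellular 10 mm and 15 mm skin, and 30.4 ± 9.40 and 63.4 ± 2.50 CPM in HDB 10 mm and 15 mm skin (SD, n = 3 each). For Eln the log2 fold change was 1.25 with all samples (edgeR adjusted p = 0.303) and 0.50 without acellular 15 mm replicate 3. Fbn2 (0.16) and Mfap4 (0.64) turned to -0.22 and -0.057 without acellular 15 mm replicate 3.
For the interaction of treatment and size 0.0% of all genes were called, with 2063 at an unadjusted p under 0.05 and 595 called by DESeq2, and 6 of the 10 genes had a larger fitted HDB effect at 15 mm, with a median difference of 0.075. Without acellular 15 mm replicate 3 all 10 did, with a median of 0.62, and without HDB 15 mm replicate 3 only Mfap5, Efemp1 and Emilin1 did, with a median of -0.24. None was called in either fit. With all samples Mfap5 had the largest interaction, 1.18 (95% interval -0.20 to 2.56, edgeR adjusted p = 0.506), and none of the 10 had an unadjusted p under 0.05. The interactions of Eln (1.73), Fbn2 (1.51) and Mfap4 (1.47) were above that of Mfap5 (1.37) without acellular 15 mm replicate 3.

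Healed skin was then set against normal skin. These 4 comparisons share the 3 normal samples and are not independent. Fbn2 rose in all 4 healed groups, and it was the only elastic fibre gene called in every group. Its level was 0.562, 0.736 and 0.805 CPM in the normal samples, where the lowest count was 8 reads, and from 3.54 to 64.6 CPM in healed samples, so every healed sample was above every normal sample. Against normal skin Fbn2 had a log2 fold change of 3.90 in acellular 10 mm (standard error 0.937, adjusted p = 0.0166), 3.69 in acellular 15 mm (0.933, adjusted p = 0.0138), 4.82 in HDB 10 mm (0.959, adjusted p = 0.0148) and 5.35 in HDB 15 mm skin (0.975, adjusted p = 0.0211), all from edgeR. As folds these are 14.9, 12.9, 28.2 and 40.8. In acellular 15 mm skin without replicate 3 the log2 fold change was 2.92 (adjusted p = 0.0310 from edgeR). Calls were lost when single samples were left out. Without normal replicate 1 the edgeR adjusted p of Fbn2 was 0.0553, 0.0520, 0.0549 and 0.0862 in the same order of groups, with log2 fold changes of 3.76, 3.58, 4.69 and 5.23. The call was also lost without normal replicate 2 in acellular 10 mm (3.92, adjusted p = 0.0602) and HDB 15 mm skin (5.40, adjusted p = 0.0621). Without normal replicate 3 it was lost in acellular 10 mm (4.00, adjusted p = 0.0630), HDB 10 mm (4.94, adjusted p = 0.0696) and HDB 15 mm skin (5.48, adjusted p = 0.0966). It was lost as well in HDB 10 mm skin without HDB replicate 2, with a value of 4.83, and in HDB 15 mm skin without HDB replicate 3, with a value of 3.97.
Efemp1 fell in 3 of the 4 groups. It was 59.6, 137 and 104 CPM in normal skin, 23.3, 25.6 and 18.8 CPM in acellular 10 mm and 33.4, 19.9 and 38.0 CPM in HDB 10 mm samples, so that no healed 10 mm sample reached the lowest normal sample. Efemp1 had a log2 fold change of -2.15 in acellular 10 mm (standard error 0.345, adjusted p = 0.00530), -1.72 in HDB 10 mm (0.340, adjusted p = 0.0143) and -1.34 in acellular 15 mm skin (0.336, adjusted p = 0.0134), all from edgeR. In HDB 15 mm skin, where levels were 60.7 to 65.5 CPM, it was -0.66 (0.331) and was not called (adjusted p = 0.219 from edgeR). The call in HDB 10 mm skin was lost without HDB replicate 2 (-1.48) or normal replicate 3 (-1.69), and that in acellular 15 mm skin without normal replicate 2 (-1.04) or when those 2 groups were fitted alone (-1.29). Without acellular 15 mm replicate 3 it was -1.74 (adjusted p = 0.00370 from edgeR), and Fbln5 was then called as well (-1.07, adjusted p = 0.0470, in place of -0.64).
In acellular 10 mm skin Fbln1 also fell, by 1.11 on the log2 scale (edgeR adjusted p = 0.0328), as did Efemp2, by 0.82 (adjusted p = 0.0213). Fbln1 was 28.9, 60.2 and 44.0 CPM in normal skin and 21.98, 18.4 and 21.5 CPM in acellular 10 mm samples. Neither was called in another group, and neither call held when any acellular 10 mm or normal sample was left out, with the exception of Efemp2 without acellular 10 mm replicate 2 or normal replicate 1 and of Fbln1 without normal replicate 1. Where the call was lost, the log2 fold change was between -1.16 and -0.84 for Fbln1 and between -0.88 and -0.70 for Efemp2. Mfap5 (-1.41, adjusted p = 0.0635) and Fbln5 (-0.96, adjusted p = 0.0891) were lower but not called there by edgeR in the fit of all groups. Fitted on those 2 groups alone, edgeR called Mfap5 (-1.42, adjusted p = 0.0176) and Fbln5 (-0.97, adjusted p = 0.0459). DESeq2 called Mfap5 (-1.43, adjusted p = 0.0204), and edgeR called Fbln5 without acellular 10 mm replicate 2 (-1.39, adjusted p = 0.0449).
Eln was 93.7, 109 and 94.3 CPM in normal skin, the narrowest spread among the groups. Against it, the log2 fold change of Eln was 0.11 (10 mm) and 1.26 (15 mm) with acellular beads, and 0.77 (10 mm) and 2.13 (15 mm) with HDB beads, none of them called by edgeR in the fit of all groups. Every HDB sample was above every normal sample for Eln, and the value in HDB 15 mm skin had a standard error of 0.798 and an edgeR adjusted p of 0.117. DESeq2 called it (2.11, adjusted p = 0.0328), as did edgeR on those 2 groups alone (2.14, adjusted p = 0.0309), and without HDB replicate 3 it was 1.37 (adjusted p = 0.428 from edgeR). In acellular 15 mm skin without replicate 3 it was -0.26. The other genes in HDB 15 mm against normal skin had log2 fold changes of 1.955 (Mfap4), 1.31 (Fbn1), 0.89 (Emilin1), 0.75 (Mfap5), 0.42 (Efemp2), 0.26 (Fbln5) and 0.070 (Fbln1), none called by edgeR in the fit of all groups. DESeq2 called Mfap4 (adjusted p = 0.0311), and edgeR on those 2 groups alone called Mfap4 (0.0384), Fbn1 (0.0453) and Emilin1 (0.0217).

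**Figure D5:**
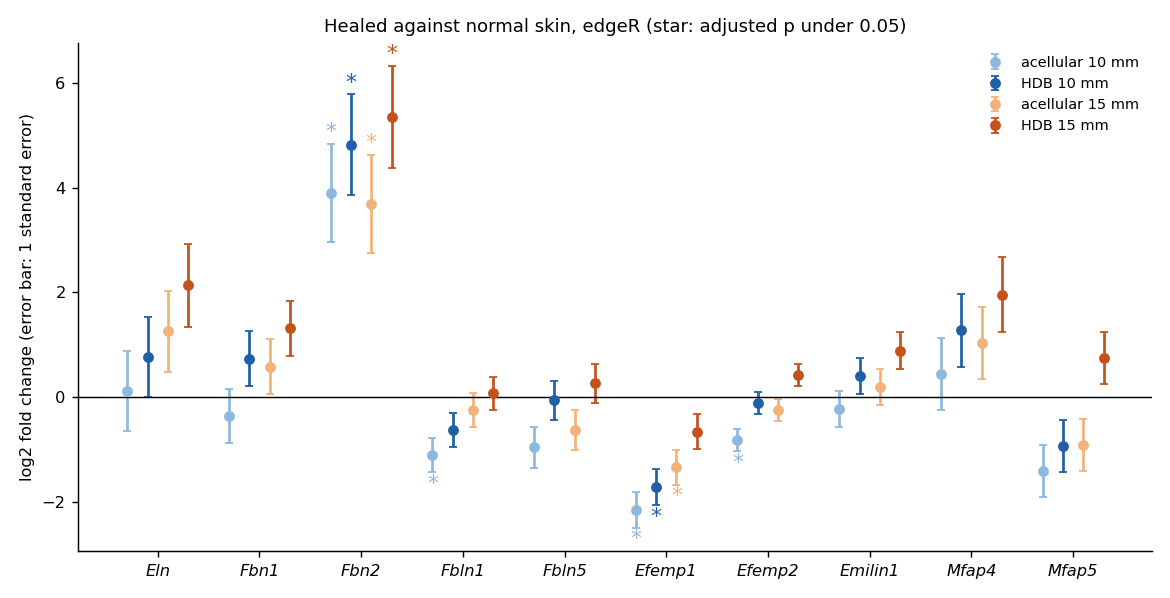
Points are log2 fold changes of each healed group against normal skin from edgeR for the 10 genes, bars are 1 standard error and stars mark an adjusted p under 0.05. Fbn2 is starred in 4 groups at values from 3.69 to 5.35, and Efemp1 in 3 groups at values from -2.15 to -1.34.

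Of all genes 20.3% were called in acellular 10 mm against normal skin (9.77% higher, 10.6% lower), where 4 of the 10 elastic fibre genes were called, 1 higher and 3 lower. In acellular 15 mm skin 30.2% were called (17.6% higher, 12.6% lower), against 2 of the 10. In HDB 10 mm skin 12.3% were called (6.1% higher, 6.23% lower), against 2 of the 10, and in HDB 15 mm skin 5.18% (2.67% higher, 2.51% lower), against 1 of the 10. The median log2 fold change of the 10 genes was -0.59 (10 mm) and -0.024 (15 mm) with acellular beads, and 0.17 (10 mm) and 0.82 (15 mm) with HDB beads, and between 0.019 and 0.059 over all genes. In acellular 15 mm skin 5 of the 10 genes were higher with all samples, and without replicate 3 the median was -0.41 and only Fbn2 was higher. Of the 8 fibroblast genes, 6 were lower and called in acellular 10 mm skin and 1 in acellular 15 mm skin, against 2 in HDB 10 mm skin and none in HDB 15 mm skin, with medians of -1.92, -1.04, -0.66 and -0.19. In acellular 15 mm skin without replicate 3, edgeR called 6 fibroblast genes as lower, with a median of -2.02. All 6 endothelial genes were called lower in both acellular groups, 5 in HDB 10 mm skin and none in HDB 15 mm skin. Of 5 macrophage genes, 4, 3, 2 and none were called lower in the same order of groups as the fibroblast genes, and all 5 adipocyte genes were called lower in acellular 10 mm skin and none in the other groups. All 7 smooth muscle and pericyte genes were lower in both acellular groups, 2 of them called in each. All 6 skeletal muscle genes were lower in the 4 groups, with medians of -1.79, -2.83, -1.85 and -1.68, and 1 was called, in acellular 15 mm skin. Hair shaft genes were called higher, 6 in acellular 15 mm skin and 1 in acellular 10 mm skin. All 6 were also higher in HDB 15 mm skin (median 8.18, each with an edgeR unadjusted p under 0.05) and in HDB 10 mm skin (median 3.44), with none called. The part of these cell types in the differences from normal skin was not tested.

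The partners of the elastic fibre were followed as lists. With all samples edgeR called none of their genes between HDB and acellular skin or for the interaction. All 5 cross-linking genes (Lox and Loxl1 to Loxl4), the amine oxidases that join elastin and collagen, were higher in HDB skin over both sizes, with a median log2 fold change of 0.83. Their median was 1.03 without acellular 15 mm replicate 3, where 1 of the 5 was called, and without HDB 15 mm replicate 3 it was 0.86. Loxl1 averaged 25.4 ± 9.75 CPM in acellular 10 mm skin against 42.1 ± 6.42 CPM with HDB, and 37.5 ± 23.9 CPM in acellular 15 mm skin against 86.5 ± 31.3 CPM with HDB (SD, n = 3 each). The combined log2 fold change of Loxl1 was 0.97 (standard error 0.342, edgeR adjusted p = 0.261), and that of Loxl2 was 0.83 (0.272, adjusted p = 0.261).
Of the 16 further microfibril genes and latent TGF-beta binding proteins, 12 were higher over both sizes, with a median of 0.24. Without acellular 15 mm replicate 3, 13 were higher, with a median of 0.37, and 2 were called, where 1.47% of all genes were called. Fbln2, a larger fibulin, had 83.3 ± 21.4 and 161 ± 8.66 CPM in acellular and HDB skin at 10 mm (SD, n = 3 each), and a log2 fold change of 0.95 over both sizes (edgeR adjusted p = 0.261). Mfap2, the other small microfibril glycoprotein, had 0.81 (adjusted p = 0.274). Among 8 proteoglycans and other elastin-binding matrix genes 7 were higher, with a median of 0.27, and the small proteoglycans Dcn (0.97) and Bgn (0.75) had the smallest p values of this list, with adjusted p = 0.261 each from edgeR. The median of these 8 genes was 0.51 without acellular 15 mm replicate 3, and 2 were then called.
Enzymes that can degrade elastin and their inhibitors were followed next, and none was called by edgeR with all samples. All 10 elastase and matrix protease genes tested were higher in HDB skin over both sizes, with a median of 0.71. The smallest p values were those of Mmp14 (0.72, edgeR adjusted p = 0.275), a membrane protease, and Mmp3 (1.15, adjusted p = 0.275), stromelysin. The median was 1.04 without acellular 15 mm replicate 3 and 0.52 without HDB 15 mm replicate 3. Of 8 inhibitors tested 6 were higher, with a median of 0.58, among them Timp1 (1.09) and Timp2 (0.56), while Slpi (-0.46) and Timp3 (-0.11) were lower. The 3 genes of the elastin receptor complex were higher by a median of 0.20, and of these Glb1 had 0.27 and Ctsa 0.20. Of 8 genes outside the matrix that cause inherited cutis laxa, 4 were higher and 4 lower, with a median of 0.040. The 2 with the smallest p values were Gorab (0.26, edgeR adjusted p = 0.277), a Golgi protein, and Slc2a10 (0.66, adjusted p = 0.331), a glucose transporter.

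Against normal skin no cross-linking gene was called in any healed group. Mmp12, the macrophage elastase, rose in acellular 10 mm, acellular 15 mm and HDB 10 mm skin by log2 fold changes of 4.28, 4.28 and 4.44 (edgeR adjusted p = 0.0295, 0.0220 and 0.0376), from 2.35 to 9.48 CPM in normal samples and from 5.84 to 318 CPM in samples of these groups, the lowest of them within the range of normal skin. In HDB 15 mm skin it ranged from 80.0 to 155 CPM, with a log2 fold change of 4.25 of about the same size that was not called (adjusted p = 0.0597 from edgeR). Mmp14 was called there (log2 fold change 1.52, adjusted p = 0.0480 from edgeR). The neutrophil protease gene Prtn3 fell in acellular 10 mm skin (-3.10). Among the inhibitors, Timp1 rose in HDB 10 mm (2.28) and HDB 15 mm skin (2.55), from 1.61 to 2.21 CPM in normal samples to between 5.56 and 15.0 CPM in HDB samples. For Timp1 the acellular groups were not called, with means of 5.00 CPM at 10 mm and 5.06 CPM at 15 mm. Slpi, a secreted inhibitor of neutrophil elastase, rose in acellular 10 mm (2.55) and acellular 15 mm skin (2.38). Mean Slpi was 4.04 and 3.61 CPM there and 0.69 CPM in normal skin. It was 2.95 and 2.60 CPM in HDB 10 mm and HDB 15 mm skin, which were not called. Timp4 fell in acellular 10 mm (-2.73), acellular 15 mm (-1.51) and HDB 10 mm skin (-2.15), and Timp3 fell in all 4 groups (-0.93, -0.65, -1.06 and -0.74 in acellular 10 mm, acellular 15 mm, HDB 10 mm and HDB 15 mm skin).
Microfibril partners went both ways. Adamtsl4, whose product binds fibrillin, fell in all 4 groups, from 93.1 ± 8.10 CPM in normal skin to group means of 21.9 to 31.4 CPM (log2 fold changes -1.77, -2.09, -1.94 and -1.57 in acellular 10 mm, acellular 15 mm, HDB 10 mm and HDB 15 mm skin). Adamts17, a related protease, rose in all 4 groups by 1.46 to 2.07. Fbln7 rose in acellular 15 mm (1.24) and HDB 15 mm skin (1.86), and Emilin2 fell in acellular 10 mm (-2.08) and acellular 15 mm skin (-1.39). The proteoglycan Dcn fell in acellular 10 mm (-2.12) and acellular 15 mm skin (-1.64) and was not called in HDB skin, and Fn1, fibronectin, fell in acellular 10 mm skin (-2.02). Vcan, the large proteoglycan versican, rose in acellular 15 mm skin (1.86). Its mean was 72.1 CPM there, 70.7 CPM in HDB 15 mm, 63.3 CPM in HDB 10 mm and 19.8 CPM in normal skin, and the HDB groups were not called. Of the genes of inherited cutis laxa, Rin2 rose in all 4 groups by 0.65 to 0.91 and Atp6v1a, a subunit of the vesicular proton pump, by 0.51 to 0.68, while Aldh18a1, a proline synthesis enzyme, rose in acellular 15 mm (1.36) and HDB 15 mm skin (1.04). All values in this paragraph are log2 fold changes called by edgeR unless given in CPM or said not to be called. A group not named for a gene was not called, which does not mean that the gene was unchanged there.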

How the data were processed

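The authors deposited 1 table of expected counts per gene, which need not be whole because reads that fit several genes are shared out. The submitters' processing notes name HISAT2 2.0.4, Bowtie2 2.2.5, RSEM 1.2.12 and GRCm38.p6, without role or order. Libraries were made from poly(A) RNA with random priming, and strand use in counting is not given in the sources used here. The members and lists were chosen with earlier results of these data known.

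Values were rounded to whole counts, genes with low counts were removed with filterByExpr, leaving 15369 of 18929, and all 5 groups were fitted together in edgeR 4.0.16 (R 4.3.3, TMM scaling, quasi-likelihood test, Benjamini-Hochberg threshold 0.05 over all genes tested). CPM values use the TMM-scaled totals. Intervals are 95%. The genes named were the 10 members and, in each partner list, the 2 with the smallest p over both sizes and the 2 with the largest change among those called against normal skin, with their calls in the other groups. Exact two-sided permutation tests over samples used log2 CPM with a prior count of 2. They took no account of replicate number, and their p-values are for 1 gene each and are not adjusted. Fits were tested on simulated counts for HDB against acellular skin at 15 mm, where 84.5% of 200 genes changed by 2 on the log2 scale were recovered, and 31% of those changed by 1, among 15267 and 15269 genes. No 2 samples of the same group had counts within sampling noise, and samples of different groups were not compared in this way. Samples with the same replicate number deviated together for acellular and HDB 15 mm skin (r = 0.397, 0.167 and 0.183), each above the limit of 0.1. Any pairing is read from these values and not from the labels. Other pairs of groups had negative values, as low as -0.547 for replicate 2 of HDB 10 mm and HDB 15 mm skin. Alternatives were DESeq2 1.42.0, other scalings and filters, the replicate block, length correction, fits of the compared groups alone and samples left out. Leaving out replicate 3 of both 15 mm groups was added after seeing the data.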

Additional observations from a re-analysis of the deposited data

How the results depend on the processing

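The fitted difference of HDB against acellular skin was positive for each of the 10 elastic fibre genes in all 530 values under the alternatives, of which 11 were called. The number of the 10 genes called changed as follows, and the cause was not tested. With DESeq2 it was 2 at 15 mm, 1 over both sizes, 4 for wound size (Efemp1, Efemp2, Fbln1 and Mfap5) and 3 for HDB 15 mm against normal skin (Eln, Fbn2 and Mfap4), where it called 12%, 1.51%, 5.14% and 14.5% of all genes. It was 5 for acellular 10 mm (28.7%). With only the groups compared it was 6 for acellular 10 mm, 1 for acellular 15 mm, 3 for HDB 10 mm and 5 for HDB 15 mm against normal skin, where 42.0%, 6.57%, 20.2% and 22.9% of all genes were called. With samples left out in turn it was 0 at 10 mm (0.0% of all genes) and for the interaction (at most 0.0064%). It ranged from 0 to 6 at 15 mm (0.0% to 14.9%), 0 to 2 over both sizes (0.0% to 1.47%) and 0 to 2 for wound size (0.0% to 4.63%). Against normal skin it ranged from 1 to 4 for acellular 10 mm (5.14% to 11.9%) and 1 to 3 for acellular 15 mm (14.8% to 37.3%). There it was 0 to 2 for HDB 10 mm (0.501% to 17.5%) and 0 to 1 for HDB 15 mm skin (0.218% to 8.61%). With the replicate block it was 3 for acellular 10 mm against normal skin, where 16.05% of all genes were called and Fbln1 kept -1.11 with an edgeR adjusted p of 0.0520. The block changed no other call of the 10 genes. The direction for wound size turned for Fbn2 with the replicate block (-0.066), with the block and length correction (-0.061) and without replicate 3 of both 15 mm groups (-0.91), where Fbln5 (-0.049) and Mfap4 (-0.37) turned too. Scaling by library size alone left 3 of the 10 genes called in acellular 10 mm against normal skin, where 28.5% of all genes were called and Efemp2 had -0.67 with an edgeR adjusted p of 0.0558. It turned Fbln5 (0.14) and Efemp2 (0.089) in HDB 10 mm against normal skin, and raised the median of all genes against normal skin to between 0.181 and 0.255. With samples left out, values crossed 0 for wound size in Fbn2 (-0.53 to 0.39) and Mfap4 (-0.057 to 0.91), and for the interaction in Fbn2 (-0.65 to 1.51). Without acellular 15 mm replicate 3 the interaction turned for Fbn1 (0.31), Fbln1 (0.12), Efemp2 (0.17) and Fbln5 (0.44), and without HDB 15 mm replicate 3 for Eln (-0.54) and Mfap4 (-0.54). Against normal skin they did so in acellular 10 mm for Eln (-0.69 to 0.44) and Mfap4 (-0.10 to 0.70), in acellular 15 mm for Eln (-0.26 to 1.73), Fbn1 (-0.098 to 0.86), Fbln1 (-0.52 to 0.040), Emilin1 (-0.33 to 0.44) and Mfap4 (-0.36 to 1.44), in HDB 10 mm for Fbln5 (-0.23 to 0.16) and Efemp2 (-0.19 to 0.024), and in HDB 15 mm for Fbln1 (-0.15 to 0.36) and Fbln5 (-0.047 to 0.48). Over all genes the number called ranged over the alternatives from 0 to 15 at 10 mm, 0 to 2322 at 15 mm, 0 to 229 over both sizes, 0 to 595 for the interaction, 0 to 834 for wound size, 800 to 6196 and 972 to 5974 for acellular 10 mm and 15 mm, and 78 to 3288 and 34 to 3401 for HDB 10 mm and 15 mm against normal skin. With replicate 3 of both 15 mm groups left out, none of the 10 genes was called by edgeR between HDB and acellular skin at 15 mm, nor was any other of the 15531 genes tested, with Eln at 1.62 and Mfap5 at 1.82. Counting error limits Fbn2 most, since it had as few as 8 reads in a normal sample.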
